A study of Mus musculus with 4 samples.

Results

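The mitochondrial genome transcripts are the 37 genes of the deposited quadriceps count table whose symbol begins with mt-, out of 51826 genes in the table. They were chosen by symbol alone, and all 37 symbols were found on the mitochondrial chromosome (M) of GRCm38 in GENCODE release M21. The group holds 13 protein-coding genes, 2 ribosomal RNA (rRNA) genes and 22 transfer RNA (tRNA) genes. Both genotypes were male littermate mice on a C57BL6/J background, of about 20 weeks, sedentary and kept on standard chow. The 2 WT mice carried an intact Mef2d gene. The 2 Mef2dα2 Eko mice carried a germline CRISPR-Cas9 deletion of the muscle-specific α2 exon of Mef2d, a MEF2 transcription factor, in all tissues and not in muscle alone. More than 1 founder line of the deletion exists, and the labels do not say which of them was sequenced. RNA of the quadriceps of each mouse was selected for polyA and sequenced as 1 library, so each value below stands for 1 mouse. Values of a genotype are given in the order of its replicate numbers, and the Mef2dα2 Eko mice are called Eko mice.

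Mitochondria keep a small circular genome that codes for core subunits of the respiratory chain and for the rRNAs and tRNAs of the mitochondrial ribosome. A single RNA polymerase, POLRMT, copies each strand into a long transcript with the help of TFAM. The tRNAs lie between the other genes like punctuation, and RNase P (with its subunit TRMT10C) and the RNase Z ELAC2 cut them out, which releases the mRNAs and rRNAs. Most of these RNAs then receive a short polyA tail from MTPAP, and the LRPPRC-SLIRP complex protects the mRNAs. The light-strand mRNA mt-Nd6 is known to lack a stable tail. Skeletal muscle is rich in mitochondria, above all in oxidative fibres. The comparison asked whether loss of the α2 exon went with a different level of these RNAs or a different share of the library.

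The arrangement of the genes is visible in the sequence. The junctions below are from the mitochondrial transcripts of GENCODE release M21 on GRCm38, plus strand, and show the last bases of an rRNA or mRNA gene in lower case and the first bases of the tRNA gene that follows in capitals. They lie at chrM:1010-1039, chrM:9376-9405 and chrM:15274-15303.
mt-Rnr1/mt-Tv: tgtgcttggaataatCATAGTGTAGCTTAA
mt-Co3/mt-Tg: attgatgaggatcttACTCCCTTAGTATAA
mt-Cytb/mt-Tt: taaaattatatccatGTCTTGATAGTATAA
At each of these junctions no base lies between the genes. The whole mt-Tv gene, the valine tRNA between the rRNAs at chrM:1025-1093, is 69 bases long.
mt-Tv: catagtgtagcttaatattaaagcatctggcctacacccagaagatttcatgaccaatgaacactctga
The complex V genes mt-Atp8 and mt-Atp6 share 43 bases at chrM:7927-7969, shown here with the start codon of mt-Atp6 in capitals, so a read from these bases could be counted for either gene.
mt-Atp8/mt-Atp6 overlap: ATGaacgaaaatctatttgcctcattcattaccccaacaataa
The genes mt-Nd4l and mt-Nd4 overlap by 7 bases on the same strand, and mt-Nd5 and mt-Nd6 overlap by 14 bases on opposite strands. The libraries were stranded, but the sources used here do not state a strand setting for counting.

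Part of the nuclear genome is a near-identical copy of this region, which decides how the counts of several members can be read. Unprocessed pseudogenes at chr1:24611535-24616197, minus strand, match the run from the end of mt-Co1 to mt-Nd4. The 7 pseudogenes there align to mitochondrial genes over 4140 bases with 2 mismatches. The first 60 bases of 3 such pairs are shown because their copies held the most counts. They are also the pairs whose division of counts varied most between mice.
mt-Co2 (chrM:7013-7072): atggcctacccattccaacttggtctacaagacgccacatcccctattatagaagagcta
Gm28661 (chr1:24615506-24615565): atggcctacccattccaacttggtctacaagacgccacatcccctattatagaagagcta
mt-Atp6 (chrM:7927-7986): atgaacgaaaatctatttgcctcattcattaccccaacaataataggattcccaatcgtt
Gm10925 (chr1:24614592-24614651): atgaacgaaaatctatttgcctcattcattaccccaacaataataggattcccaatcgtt
mt-Co3 (chrM:8607-8666): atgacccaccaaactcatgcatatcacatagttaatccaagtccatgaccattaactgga
Gm28437 (chr1:24613912-24613971): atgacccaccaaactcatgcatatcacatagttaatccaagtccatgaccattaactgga
Within each pair the aligned sequences are the same over their full aligned length of 681, 678 and 783 bases. A read from inside them cannot be assigned by its sequence, and RSEM divides such reads by a probability model. The complex I gene mt-Nd3 and its copy Gm28438 differ by T3C, counted from the first base of mt-Nd3, which is marked by the capital in each line.
mt-Nd3 (chrM:9459-9476): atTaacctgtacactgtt
Gm28438 (chr1:24613102-24613119): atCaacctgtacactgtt
The other mismatch is A1066T, counted from the first base of mt-Co1, at the edge of its alignment with Gm29216.

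The 4 libraries held between 72626757 and 85176059 expected counts, and the totals of the genotypes overlapped. Mef2d itself had from 18393 to 19687 counts per WT mouse and from 17206 to 21695 per Eko mouse, but counts per gene do not separate the deleted α2 exon and so do not check the labels. All 6 skeletal muscle markers were detected, and their summed level overlapped between the genotypes (116128 and 117458 CPM in WT, 114429 and 119869 CPM in Eko mice). CPM are a library's counts scaled to a common total after TMM normalization.

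Mitochondrial transcripts made up a large part of each library. The 37 genes held 20.7% of all counts in WT replicate 1, 15.8% in WT replicate 2, 17.4% in Eko replicate 1 and 15.9% in Eko replicate 2. Both Eko mice therefore lay between the WT mice. The mean share was 18.2% ± 3.48 (SD, n = 2 mice) in WT and 16.6% ± 1.07 (SD, n = 2 mice) in Eko mice, a difference of -1.61 percentage points that was smaller than the spread between the WT mice (exact two-sided permutation test, p = 1, where the smallest p that 2 mice against 2 allow is 0.333). Without WT replicate 1 the difference was 0.852 percentage points, in the other direction. The Wilson 95% interval of each share, which covers counting error only, ran from 20.696% to 20.714% in WT replicate 1 and was about as narrow in the other mice, so depth did not limit this comparison.

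WT replicate 1 also stood apart in other measures. The nuclear rRNA gene CT010467.1 on chromosome 17 took 0.786% of its counts, against 3.42% in WT replicate 2, 2.89% in Eko replicate 1 and 4.67% in Eko replicate 2. With nuclear rRNA left out of the total, the mitochondrial share was 20.9% and 16.3% in WT and 17.9% and 16.7% in Eko mice, so the order of the mice at the top and bottom was kept. The slow-fibre myosin Myh7 was lowest in this mouse, at 113 CPM against 339 CPM in WT replicate 2, 237 CPM in Eko replicate 1 and 145 CPM in Eko replicate 2. The summed level of 5 adipocyte markers was highest in it, at 157 CPM against 95.5, 90.5 and 70.0 CPM in the same order. Not all markers of these kinds had these orders. Of the other slow and oxidative fibre markers, Tnnt1 and Tnni1 were also lowest in WT replicate 1, but Myh2, Myl2 and Myl3 were lowest in Eko replicate 2. The adipocyte marker Lep was highest in Eko replicate 1. Apart from the total without nuclear rRNA, the part of these values in the mitochondrial share of WT replicate 1 was not tested.

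Nuclear copies took a further part of each library. The 11 nuclear genes that matched a mitochondrial gene at 95% identity or more over at least 200 bases held 6.52% and 5.22% of counts in WT and 5.53% and 5.27% in Eko mice. Together with them the mitochondrial genes held 27.2% and 21.0% in WT and 22.9% and 21.2% in Eko mice. The same mouse was highest and the same mouse lowest with and without the copies. Of the 11 copies, 8 had at least 100 counts in a library and are named below.

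**Figure D1:**
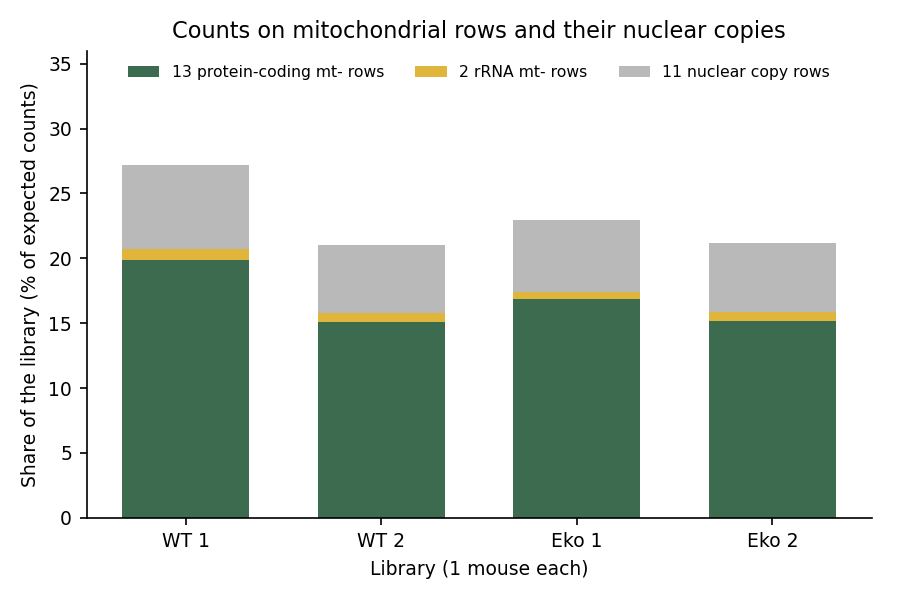
Share of each library's expected counts (%, y axis) on the 13 protein-coding genes, the 2 rRNA genes and the 11 nuclear copy genes, stacked, for the 4 mice (x axis, 1 bar per mouse). WT replicate 1 has the tallest bar at 27.2%, and the other 3 mice lie between 21.0% and 22.9%.

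By class, the protein-coding genes held nearly all of these counts. Their share of the library was 19.9% and 15.1% in WT and 16.9% and 15.2% in Eko mice, and the genotypes overlapped. The rRNA genes held 0.807% and 0.718% in WT and 0.514% and 0.677% in Eko mice. Both Eko mice had the lower rRNA share, with a mean of 0.595% ± 0.115 against 0.762% ± 0.0625 in WT (SD, n = 2 mice each), and the exact two-sided permutation test gave p = 0.333, the smallest it can give. No count was assigned to any of the 22 tRNA genes in any library. These genes are 59 to 75 bases long, and a count of 0 allows up to 3 counts, or between 0.0348 and 0.0419 CPM, for each tRNA gene in each library. No tRNA gene could therefore be compared, and 15 members passed the filter on low counts and were tested.

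None of the 15 genes tested passed the threshold between the genotypes. Benjamini-Hochberg adjustment of edgeR quasi-likelihood p-values over all 16120 genes tested left 0 of 15 under 0.05, where 0.416% of all genes were (67 genes), and DESeq2 also called 0, where it called 1.97% of all genes. Without a filter on low counts, the same test called 4 of the 15 lower in Eko mice (mt-Rnr1, mt-Rnr2, mt-Atp6 and mt-Co3), with 799 of 24621 genes called in all. At an unadjusted p below 0.05, 1 of the 15 passed (mt-Nd6), where 11.6% of all genes did. The log2 fold changes of Eko against WT mice ran from -0.43 for mt-Atp6 to 0.25 for mt-Nd6, and adjusted p from 0.384 to 0.983. Of the 15, 13 had a negative log2 fold change and 2 a positive one, with a median of -0.17 beside -0.0051 over all genes tested. Both Eko mice lay below both WT mice for 2 of the 15 (mt-Rnr1 and mt-Rnr2), as for 23.0% of all genes, and above both for 1 (mt-Nd6), as for 20.8% of all genes. The 95% confidence interval of the fold change lay within 1.5-fold in either direction for 8 of the 15 and within 2-fold for 14. The exception was mt-Atp6, whose interval ran from 0.469 to 1.18 times the WT level.

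The spread between the WT mice was larger than the genotype difference for most of these genes. WT replicate 1 and WT replicate 2 differed by a median of 0.50 on the log2 scale over the 15 genes and the Eko mice by 0.14, while the median size of the fold change was 0.18. The WT mice differed by more than the genotypes did for 12 of the 15 genes, and the Eko mice did for 7. WT replicate 1 had the highest level of the 4 mice for 13 of the 15, the exceptions being mt-Co2 and mt-Nd6. The negative direction rests on this mouse. Without it, 9 of the 13 genes with a negative log2 fold change had a positive one, from 0.037 for mt-Atp6 to 0.25 for mt-Nd4l, and mt-Rnr1, mt-Rnr2, mt-Co2 and mt-Co3 stayed negative.

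**Figure D2:**
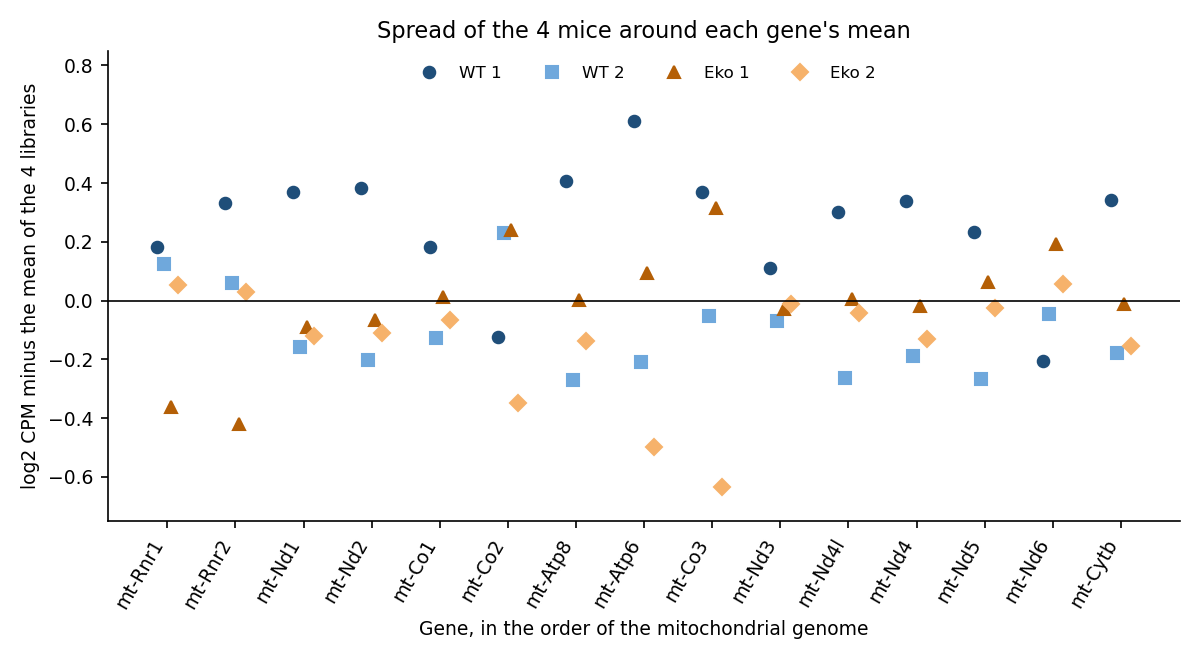
Level of each mitochondrial gene in each mouse as log2 CPM minus the mean of the 4 mice (y axis), for the 15 genes with counts in genome order (x axis). Each point is 1 mouse. WT replicate 1 lies highest for 13 genes, and Eko replicate 1 lies lowest for both rRNA genes.

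The mitochondrial ribosome is built on the rRNAs of mt-Rnr1 (12S) and mt-Rnr2 (16S). Levels of the members are given in CPM per kilobase of gene (CPM per kb), so that genes can be set side by side. The level of mt-Rnr1 (ENSMUSG00000064337.1, chrM:70-1024) was 2564 and 2468 CPM per kb in WT and 1761 and 2348 CPM per kb in Eko mice. That of mt-Rnr2 (ENSMUSG00000064339.1, chrM:1094-2675) was 3609 and 2988 CPM per kb in WT and 2147 and 2928 CPM per kb in Eko mice. For both genes the groups did not overlap, but Eko replicate 2 lay close under the WT mice and Eko replicate 1 well below. The log2 fold change was -0.29 (95% confidence interval -0.61 to 0.025, adjusted p = 0.469, edgeR) for mt-Rnr1 and -0.38 (95% confidence interval -0.76 to 0.0021, adjusted p = 0.436, edgeR) for mt-Rnr2, neither past the threshold. Without Eko replicate 1 these were -0.088 and -0.16. The rRNAs kept their proportion to each other, since the ratio of mt-Rnr2 to mt-Rnr1 counts was 2.33 and 2.01 in WT and 2.02 and 2.07 in Eko mice. Mitochondrial rRNAs are known to carry at most short tails, and these are their levels after polyA selection, not in the cell.

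Complex I, the NADH dehydrogenase at the entry of the chain, takes 7 of its core subunits from this genome. The genes mt-Nd1 and mt-Nd2 were at 25642 and 17788 CPM per kb and at 20542 and 13694 CPM per kb in WT, and at 18614 and 18227 CPM per kb and at 15064 and 14597 CPM per kb in Eko mice. For mt-Nd4 the levels were 22743 and 15755 CPM per kb in WT and 17734 and 16398 CPM per kb in Eko mice. It kept between 98.95% and 99.46% of the counts it shares with its copy Gm28439. For mt-Nd5 the levels were 9796 and 6928 CPM per kb in WT and 8706 and 8196 CPM per kb in Eko mice. In each of these 4 genes both Eko mice fell between the WT mice. Their log2 fold changes were -0.24 (standard error 0.17), -0.21 (standard error 0.18), -0.17 (standard error 0.17) and 0.015 (standard error 0.16), with adjusted p from edgeR between 0.629 and 0.983.

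The light-strand gene mt-Nd6 (ENSMUSG00000064368.1, chrM:13552-14070, minus strand) was the 1 protein-coding member whose groups did not overlap. It is the only mRNA coded on its strand, which also holds 8 of the tRNA genes, while the other 28 members lie on the plus strand. It was at 6306 and 7054 CPM per kb in WT and at 8324 and 7574 CPM per kb in Eko mice, so that both Eko mice were higher. The means were 6680 ± 529 and 7949 ± 531 CPM per kb (SD, n = 2 mice each), with a log2 fold change of 0.25 (95% confidence interval 0.027 to 0.47, unadjusted p = 0.033, adjusted p = 0.384, edgeR), which did not pass the threshold. As a share of all mitochondrial counts it was 1.56% and 2.35% in WT and 2.51% and 2.44% in Eko mice (exact two-sided permutation test, p = 0.333), and most of that gap lay between WT replicate 1 and the other 3 mice. Set against mt-Nd5, which overlaps its end on the other strand, its counts were 0.183 and 0.290 in WT and 0.272 and 0.263 in Eko mice, and these ratios overlapped.

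The short complex I genes mt-Nd3 and mt-Nd4l were among those that share reads with nuclear copies. Assigned to mt-Nd3 were 425 and 375 CPM per kb in WT and 385 and 390 CPM per kb in Eko mice, the lowest level of the 15 genes. This was 6.22% and 6.82% of the counts of mt-Nd3 and Gm28438 together in WT and 6.79% and 7.39% in Eko mice. For mt-Nd4l the levels were 2667 and 1801 CPM per kb in WT and 2174 and 2101 CPM per kb in Eko mice. It kept about 1 count in 3 of those it shares with Gm10222, between 32.6% and 34.3% over the 4 mice. Summed with their copies, mt-Nd3 was at 6835 and 5503 CPM per kb in WT and at 5672 and 5272 CPM per kb in Eko mice, and mt-Nd4l at 7820 and 5522 CPM per kb and at 6571 and 6131 CPM per kb. The summed log2 fold changes were -0.17 for mt-Nd3 (-0.046 for the gene alone) and -0.071 for mt-Nd4l (-0.063 for the gene alone), with adjusted p from edgeR of 0.605 and 0.897.

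Complex III, the cytochrome bc1 complex, takes cytochrome b from mt-Cytb. Its level was 24991 and 17450 CPM per kb in WT and 19596 and 17739 CPM per kb in Eko mice, again with both Eko mice between the WT mice. The log2 fold change was -0.18 (95% confidence interval -0.58 to 0.21, adjusted p = 0.720, edgeR).

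Complex IV, cytochrome c oxidase, takes its catalytic core from mt-Co1, mt-Co2 and mt-Co3. The most abundant transcript of the group per kb was mt-Co1, at 41286 and 33310 CPM per kb in WT and 36761 and 34802 CPM per kb in Eko mice, and it held between 30.5% and 33.3% of all mitochondrial counts. Its log2 fold change was -0.060 (95% confidence interval -0.36 to 0.24, adjusted p = 0.893, edgeR). Little of it was at stake in the copies, since mt-Co1 kept at least 95.4% of the counts it shares with Gm29216 and nearly all of those it shares with Gm13340 on chromosome 2.

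The levels of mt-Co2 and mt-Co3 depended on the copies. Alone, mt-Co2 was at 2209 and 2819 CPM per kb in WT and 2841 and 1891 CPM per kb in Eko mice, and mt-Co3 at 5163 and 3854 CPM per kb in WT and 4963 and 2572 CPM per kb in Eko mice. In both the lowest mouse was Eko replicate 2. The share of the pair's counts assigned to mt-Co2 rather than Gm28661 was 7.36% and 11.8% in WT and 11.3% and 8.01% in Eko mice, and that assigned to mt-Co3 rather than Gm28437 was 17.7% and 15.8% in WT and 18.8% and 10.4% in Eko mice. These shares varied between mice of the same genotype although the sequences of each pair are identical, as shown above.

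Summed with their copies, these genes were, with mt-Atp6, the next most abundant after mt-Co1. The sum for mt-Co2 was 29999 and 23949 CPM per kb in WT and 25218 and 23621 CPM per kb in Eko mice. For mt-Co3 it was 29108 and 24461 CPM per kb in WT and 26456 and 24738 CPM per kb in Eko mice. The mice of a genotype drew together, and the log2 fold change of mt-Co3 moved from -0.26 (95% confidence interval -0.94 to 0.42) to -0.066 (95% confidence interval -0.32 to 0.19, adjusted p = 0.863, edgeR). That of mt-Co2 moved from -0.088 to -0.14 (adjusted p = 0.696, edgeR).

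Complex V, the ATP synthase, takes mt-Atp6 and mt-Atp8 from this genome. For mt-Atp8, which has no copy among the matched genes, the levels were 7621 and 4764 CPM per kb in WT and 5756 and 5232 CPM per kb in Eko mice, with a log2 fold change of -0.17 (adjusted p = 0.786, edgeR). For mt-Atp6 alone they were 3645 and 2069 CPM per kb in WT and 2552 and 1693 CPM per kb in Eko mice, and the groups overlapped. This was the most negative log2 fold change of the 15, at -0.43 (95% confidence interval -1.1 to 0.24, adjusted p = 0.607, edgeR). The share of the pair's counts assigned to mt-Atp6 rather than Gm10925 was 10.3% and 8.40% in WT and 9.41% and 6.74% in Eko mice. With the copy added, the level was 35243 and 24617 CPM per kb in WT and 27138 and 25127 CPM per kb in Eko mice, and the log2 fold change was -0.20 (95% confidence interval -0.58 to 0.19, adjusted p = 0.693, edgeR).

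**Figure D3:**
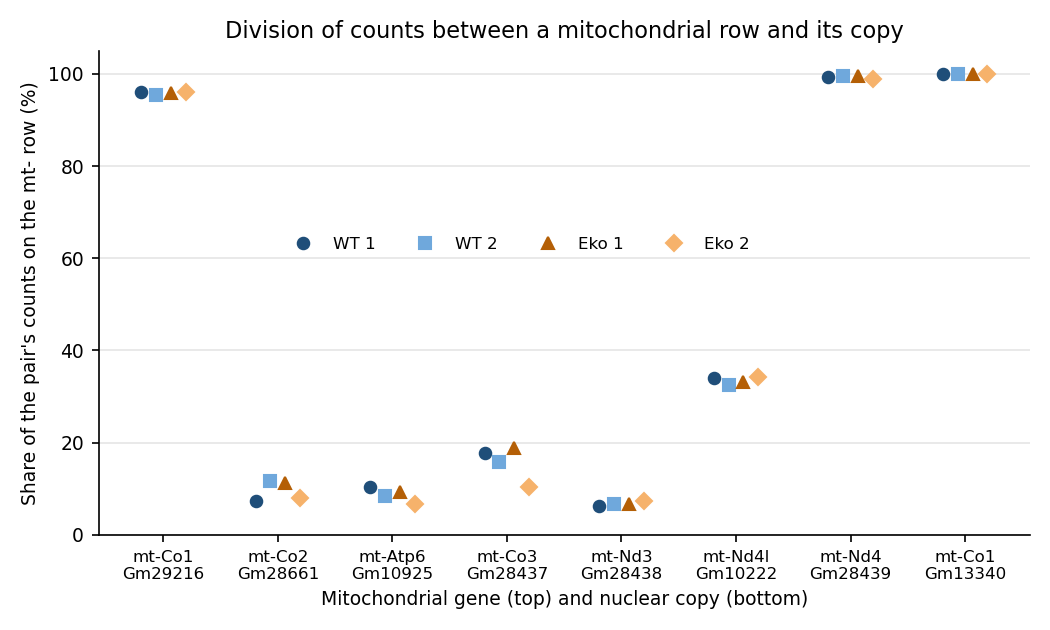
Share of a pair's counts assigned to the mitochondrial gene rather than its nuclear copy (%, y axis) for the 8 copies with at least 100 counts in a library (x axis), with 1 point per mouse. The pairs of mt-Co2, mt-Atp6, mt-Co3, mt-Nd3 and mt-Nd4l lie between 6.22% and 34.3%, and the pairs of mt-Co1 and mt-Nd4 at 95.4% or above.

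Taking each gene with its copies changed the order of the levels and the size of some fold changes. With copies, the highest mean level in WT was that of mt-Co1 at 38954 ± 5709 CPM per kb, then mt-Atp6 at 29930 ± 7514, mt-Co2 at 26974 ± 4278 and mt-Co3 at 26785 ± 3286 CPM per kb (SD, n = 2 mice). The last 3 differed by less than their spread. They were followed by mt-Nd1 at 21715 ± 5554, mt-Cytb at 21220 ± 5333, mt-Nd4 at 19364 ± 4983 and mt-Nd2 at 17118 ± 4842 CPM per kb, which also lay within the spread of their neighbours. The genes mt-Nd5, mt-Nd6, mt-Nd4l, mt-Atp8 and mt-Nd3 followed between 8362 and 6169 CPM per kb, and the rRNAs had the lowest means, at 3298 CPM per kb for mt-Rnr2 and 2516 CPM per kb for mt-Rnr1. In the same test 0 of 15 summed genes passed the threshold, 13 had a negative log2 fold change, the range ran from -0.38 to 0.25 and the smallest adjusted p was 0.370.

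**Figure D4:**
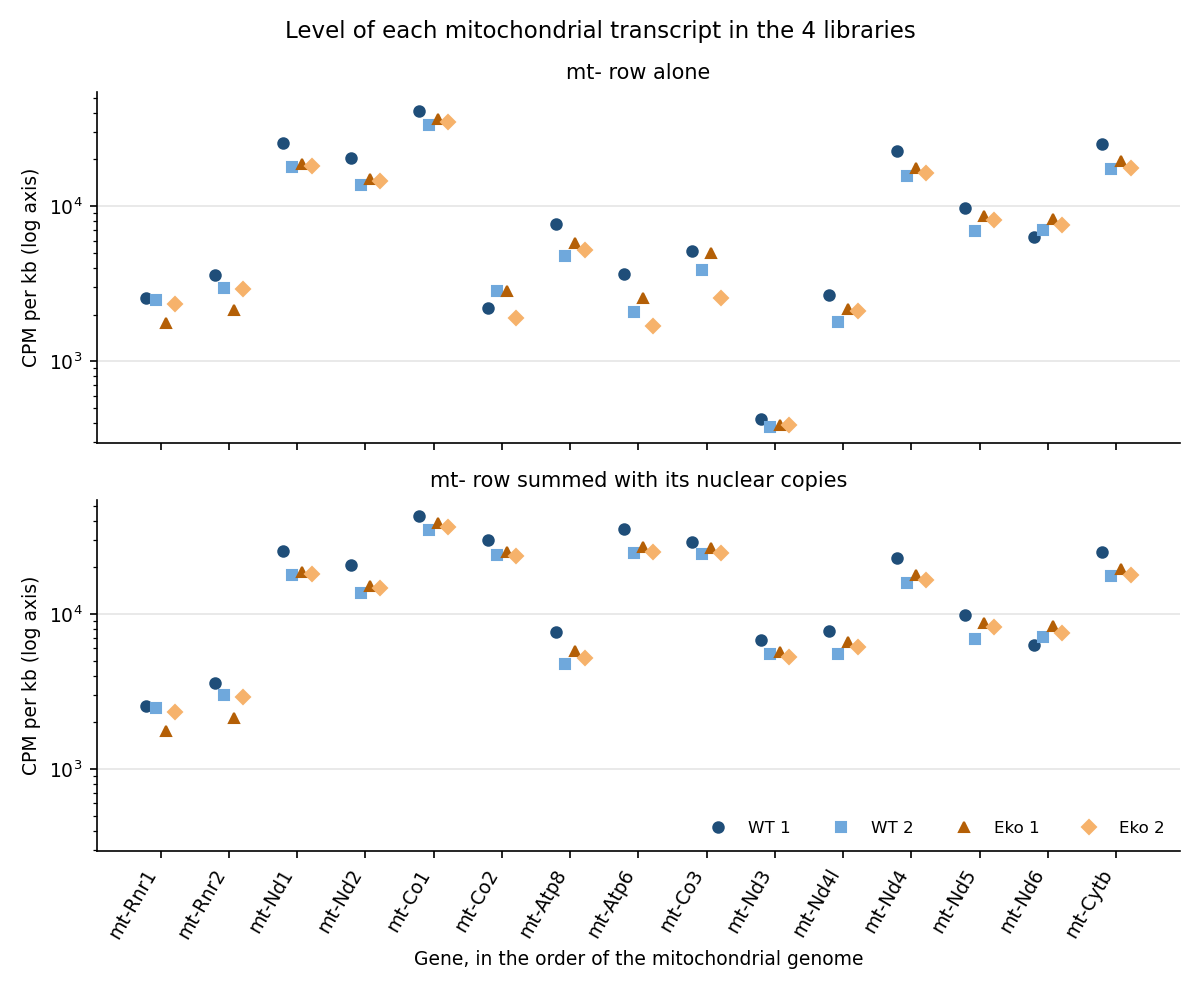
Level of the 15 mitochondrial genes in CPM per kb (y axis, log scale) in the order of the mitochondrial genome (x axis), with 1 point per mouse, for the gene alone (top) and summed with its nuclear copies (bottom). Adding the copies lifts mt-Co2, mt-Atp6, mt-Co3, mt-Nd3 and mt-Nd4l, and mt-Co1 stays highest.

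**Figure D5:**
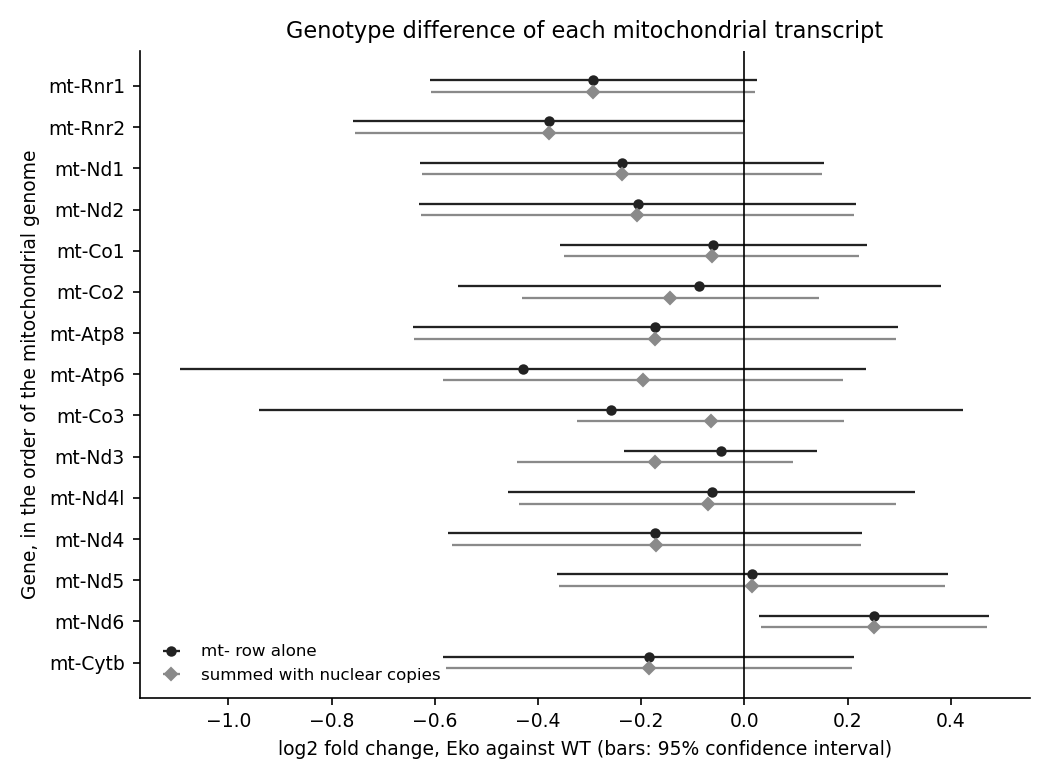
Log2 fold change of Eko against WT mice (x axis) with its 95% confidence interval for the 15 mitochondrial genes (y axis), for the gene alone (black circles) and summed with its nuclear copies (grey diamonds). The interval of mt-Nd6 lies above 0 and, with copies added to the table, that of mt-Rnr2 lies just below 0, but no gene passed the adjusted threshold.

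None of the nuclear genes that make and keep these RNAs passed the same threshold. Of 55 such genes, all tested, edgeR and DESeq2 each called 0. At an unadjusted p below 0.05, 4 passed (Ptcd2, Mrm1, Trnt1 and Cdk5rap1, named after their values were seen), or 7.27% beside 11.6% of all genes. The list had 29 negative and 26 positive log2 fold changes, with a median of -0.011. For transcription, the RNA polymerase Polrmt was at 22.0 and 19.0 CPM in WT and 20.9 and 22.4 CPM in Eko mice. The DNA-packaging factor Tfam was at 35.2 and 39.6 CPM in WT and 38.2 and 39.2 CPM in Eko mice. The elongation factor Tefm was at 9.80 and 10.2 CPM in WT and 9.89 and 11.2 CPM in Eko mice, and in all 3 genes the mice overlapped.

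For replication, the log2 fold changes of the polymerase Polg and the helicase Twnk were 0.0052 (standard error 0.075) and -0.014 (standard error 0.077). For cleavage at the tRNA junctions shown above, those of Trmt10c and Elac2 were -0.026 (standard error 0.077) and -0.027 (standard error 0.095). For the stability of the mRNAs, those of Lrpprc and Slirp were 0.0058 (standard error 0.068) and 0.11 (standard error 0.14). The polyA polymerase Mtpap and the RNA-degrading Pnpt1 had 0.024 (standard error 0.082) and 0.026 (standard error 0.11). Adjusted p from edgeR was 0.801 or more for these 8 genes.

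The nuclear subunits of the same respiratory complexes had small negative log2 fold changes. Of 75 such genes in complexes I, III, IV and V, all tested, edgeR called 0 and DESeq2 called 2, or 2.67% beside 1.97% of all genes. These were Ndufs4 of complex I and Atp5g1 of complex V, named after their values were seen, with edgeR log2 fold changes of -0.33 and -0.32. At an unadjusted p below 0.05, 14 passed, or 18.7% beside 11.6% of all genes, and all 14 had a negative log2 fold change. The log2 fold change was negative in 69 of the 75, with a median of -0.096 beside -0.0051 over all genes tested. Both Eko mice lay below both WT mice in 42 of the 75, or 56.0%, beside 23.0% of all genes, and above both in 0, beside 20.8%. The mitochondrially coded subunits did not share this order, since 12 of their 13 genes overlapped between the genotypes. Their median log2 fold change was also negative, at -0.17, but this direction rested on WT replicate 1, as described above. The WT mice differed by a median of 0.50 on the log2 scale over the 15 mitochondrial genes tested. By complex, the summed level of the nuclear subunits was 3064 and 3176 CPM in WT and 2950 and 2896 CPM in Eko mice for complex I, and 1535 and 1570 CPM in WT and 1459 and 1402 CPM in Eko mice for complex IV. Over all genes tested, the log2 fold change correlated with GC content at -0.214 (Spearman). The part of this trend in the order of the subunit genes was not tested.

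The balance between mitochondrial and nuclear subunits was that of the mitochondrial counts. For complex I, the ratio of mitochondrial counts, copies included, to nuclear counts was 33.7 and 23.0 in WT and 27.9 and 26.9 in Eko mice. For complex III it was 20.3 and 13.5 in WT and 16.3 and 14.995 in Eko mice. For complex IV it was 71.5 and 57.0 in WT and 66.7 and 65.3 in Eko mice, and for complex V 5.61 and 3.80 in WT and 4.50 and 4.14 in Eko mice. In all 4 complexes both Eko mice lay between the WT mice (exact two-sided permutation test, p = 1 for each).

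Markers of fibre type and of other cells were read from the same libraries. In RNA of a whole muscle, fewer cells of a type and less RNA per cell cannot be told apart. The summed level of 6 slow and oxidative fibre markers was 1793 and 2266 CPM in WT and 1657 and 1275 CPM in Eko mice, lower in both Eko mice, and most of it was the type IIa myosin Myh2. Myh2 was at 1576 and 1709 CPM in WT and 1264 and 1041 CPM in Eko mice (a log2 fold change of -0.51 with adjusted p = 0.161, edgeR). It was the 1 marker of the 6 that was lower in both Eko mice, or 16.7%, beside 23.0% of all genes. The others (Myh7, Tnnt1, Tnni1, Myl2 and Myl3) overlapped between the genotypes. The summed level of 5 adipocyte markers was 157 and 95.5 CPM in WT and 90.5 and 70.0 CPM in Eko mice, and that of 5 macrophage markers was 24.4 and 19.3 CPM in WT and 19.1 and 13.9 CPM in Eko mice. These sums were lower in both Eko mice, but not all of their markers were. Of the adipocyte markers 1 of 5 was lower in both Eko mice (Cfd), or 20%, beside 23.0% of all genes. The others overlapped, and Lep was highest in Eko replicate 1. Of the macrophage markers 3 of 5 were lower in both (Cd68, Cd163 and Csf1r), or 60%, and Adgre1 and Mrc1 overlapped. The sums of 4 endothelial markers (124 to 137 CPM in WT, 119 to 137 CPM in Eko mice) and 5 red blood cell markers (108 to 109 CPM in WT, 108 to 111 CPM in Eko mice) overlapped. No marker of these lists was at 0, and none passed the adjusted threshold. The part of these fibres and cells in the values of the mitochondrial genes and of the nuclear subunits was not tested.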

How the data were processed

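Reads of the 4 polyA libraries were checked with FastQC, aligned to mm10 (GRCm38) and quantified with RSEM and an Ensembl annotation by the authors; their processing notes name STAR 2.6.1a. The deposited expected counts are per gene, not normalized, and all whole numbers, so rounding changed none. Groups and replicate numbers came from the sample labels, which name separate mice. In R 4.3.3, edgeR 4.0.16 (TMM, default filter on low counts, genotype as the sole term, quasi-likelihood test, Benjamini-Hochberg adjustment over 16120 genes, threshold 0.05) gave log2 fold changes with a prior count of 0.125. Shares were compared by exact permutation tests. Nuclear copies were found with blastn 2.17.0 among GENCODE M21 transcripts (95% identity, 200 bases). DESeq2 1.42.0, limma 3.58.1 and other settings were alternatives, and some of the fits were tried on simulated data. Summing with copies and leaving nuclear rRNA out of the totals were chosen after seeing the data. The members, gene lists and tests were chosen with earlier results of these data known. All 15 members with counts are named, as are the lists' fixed examples and any list gene past the threshold (none) and copies with at least 100 counts in a library. Wilson intervals and floors (3 counts) cover counting error only, while intervals of fold changes include the spread between mice.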

Additional observations from a re-analysis of the deposited data

How the results depend on the processing

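Of 300 recomputed log2 fold changes of 18 genes (the 15 mitochondrial genes and Gm28661, Gm10925 and Gm28437), 275 kept their direction and their side of the threshold. No mitochondrial gene was called under DESeq2, RLE, upper-quartile or nuclear-only scaling, a filter of 1 CPM in 2 libraries, the likelihood ratio test, limma-voom, a GC correction, the sum with nuclear copies, or without any 1 mouse. Without a filter on low counts, 4 of 15 were called, all lower in Eko mice (mt-Rnr1, mt-Rnr2, mt-Atp6 and mt-Co3), along with 799 of 24621 genes, and the cause was not tested.

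Over all genes, the count called was 67 in the main comparison, 318 with DESeq2, 312 with the likelihood ratio test, 23 with the filter of 1 CPM, 44 with the GC correction and between 28 and 240 without 1 mouse (28 without Eko replicate 2, 30 without Eko replicate 1, 240 without WT replicate 2). Where a genotype had 1 mouse left, that mouse was assumed to vary like the others. Of the 75 nuclear subunit genes, DESeq2 and the fit without a filter called 2 each, and the likelihood ratio test and the GC correction with the block called 1 each.

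The labels do not say whether the replicate numbers pair the mice. The deviations of same-numbered mice correlated at 0.0909 over genes, which with 2 pairs cannot decide it. With the replicate number as a block, 186 genes and 0 mitochondrial genes were called, and 181 and 0 when summed with copies. The block with a GC correction called 218 genes and 1 mitochondrial gene (mt-Atp6, log2 fold change -0.48, adjusted p = 0.044).

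The difference in mitochondrial share ran from -4.06 to 0.852 percentage points without 1 mouse. Without WT replicate 1 the log2 fold change turned positive for 9 mitochondrial genes and 3 copies, which without 1 mouse ran from -0.47 to 0.050 for mt-Nd1, -0.46 to 0.12 for mt-Nd2, -0.19 to 0.10 for mt-Co1, -0.46 to 0.21 for mt-Atp8, -0.77 to 0.037 for mt-Atp6, -0.12 to 0.047 for mt-Nd3, -0.31 to 0.25 for mt-Nd4l, -0.40 to 0.12 for mt-Nd4, -0.41 to 0.097 for mt-Cytb, -0.32 to 0.062 for Gm28661, -0.38 to 0.091 for Gm10925 and -0.12 to 0.083 for Gm28437. Gm28437 also turned positive without Eko replicate 1 (0.0047). That of mt-Co2 ran from -0.40 to 0.18, positive without WT replicate 2 (0.11) or Eko replicate 2 (0.18), and that of mt-Co3 from -0.80 to 0.14, positive without Eko replicate 2. That of mt-Nd5 was -0.059 with the GC correction, -0.040 with the GC correction and the block, and -0.20 to 0.29 without 1 mouse, negative without WT replicate 2 (-0.20) or Eko replicate 1 (-0.017). Those of mt-Nd6 (0.16 to 0.35), mt-Rnr1 and mt-Rnr2 kept their direction in every alternative run. Counting error was small beside the spread between mice.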
